A study of Mus musculus with 4 samples.

Results

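The epithelial polarity complexes were examined through 10 genes of the Scribble, Par and Crumbs modules: *Scrib*, *Dlg1*, *Dlg5*, *Llgl1*, *Llgl2*, *Pard3*, *Pard6b*, *Prkci*, *Crb3* and *Patj*. They were 10 of the 22063 genes listed in the deposited count table, and they were chosen by name with their change between the libraries labelled si-*Itgb6* and those labelled si-NC already known. Their differences between these groups are therefore given as a description with no test. The libraries came from TKPTS cells, a mouse renal proximal tubular epithelial line that the sample labels call TKPT, kept for 24 h in 1% O2 and 5% CO2 and then for 12 h in normal oxygen. Both groups received this hypoxia and reoxygenation. The control group was transfected with a non-targeting siRNA (si-NC, titled Scrambled, replicates 2 and 3) and the other with an siRNA against *Itgb6* (si-*Itgb6*, titled Itgb6-siRNA, replicates 1 and 3), so n = 2 per group throughout. All libraries came from 1 cell line, and the labels do not say whether the replicates were separate cultures, so the p-values measure the spread between these samples, which may be technical.

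Epithelial cells keep an apical and a basolateral face apart through mutual antagonism of these modules. The Crumbs and Par modules define the apical side and the tight junction, the Scribble module holds the basolateral membrane, and the kinase atypical PKC phosphorylates LGL proteins to keep them off the apical surface. In the renal tubule this asymmetry places transporters and junctions on the correct side, and the same proteins feed into Hippo signaling. In the authors' deposited KEGG annotation, the Hippo signaling pathway held 9 of the 10 genes (not *Crb3*) among its 158 genes, and the tight junction pathway held 9 (not *Dlg5*) among 170.

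The promoters of 4 genes are shown because they carried a form of the E-box, CAGGTG or its reverse complement CACCTG, more than once. Other forms of the E-box were not searched, and E-box means this form alone in the counts and shares below. It is a letter pattern recognized by several families of transcription factors, among them the Snail family, known as repressors of epithelial genes. The stretches run from 250 bases before a RefSeq transcription start to 30 bases after it (build GRCm38.p6, plus strand in each case). Matches to this form are in capitals, and other forms of the E-box were left in lower case. They are *Crb3* at chr17:57061981-57062260, *Patj* at chr4:98395576-98395855, *Pard6b* at chr2:168080754-168081033 and an internal start of *Pard3* at chr8:127299362-127299641. *Crb3* had a second, overlapping window with the same matches.
Crb3: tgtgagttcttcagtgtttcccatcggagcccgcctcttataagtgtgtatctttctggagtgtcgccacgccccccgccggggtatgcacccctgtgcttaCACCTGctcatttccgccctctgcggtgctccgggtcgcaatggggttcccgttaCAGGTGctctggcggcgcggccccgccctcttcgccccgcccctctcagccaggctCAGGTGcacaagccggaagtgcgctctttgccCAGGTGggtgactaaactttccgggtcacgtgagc
Patj: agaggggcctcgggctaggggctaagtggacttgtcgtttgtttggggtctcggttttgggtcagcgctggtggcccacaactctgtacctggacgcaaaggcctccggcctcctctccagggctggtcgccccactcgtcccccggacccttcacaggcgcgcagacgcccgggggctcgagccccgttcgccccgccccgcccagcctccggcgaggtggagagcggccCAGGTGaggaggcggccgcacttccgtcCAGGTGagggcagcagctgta
Pard6b: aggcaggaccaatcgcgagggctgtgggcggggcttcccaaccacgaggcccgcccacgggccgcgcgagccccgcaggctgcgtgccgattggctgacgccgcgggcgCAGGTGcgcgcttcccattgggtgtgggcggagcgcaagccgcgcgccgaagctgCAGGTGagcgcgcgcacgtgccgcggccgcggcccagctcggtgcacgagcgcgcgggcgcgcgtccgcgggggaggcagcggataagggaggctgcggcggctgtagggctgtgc
Pard3: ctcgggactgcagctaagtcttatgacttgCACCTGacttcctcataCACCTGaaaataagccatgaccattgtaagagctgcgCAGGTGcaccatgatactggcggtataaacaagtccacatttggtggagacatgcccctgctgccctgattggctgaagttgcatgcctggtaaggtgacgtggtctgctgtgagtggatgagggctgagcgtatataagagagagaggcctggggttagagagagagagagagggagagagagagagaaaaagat

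Counted to the first base of each match, with the first transcribed base as 1, the E-boxes lay at -148, -93, -37 and -5 in *Crb3*, at -19 and 10 in *Patj*, at -141 and -86 in *Pard6b* and at -220, -203 and -166 in *Pard3*. A further match at 38 in *Patj* lay past the stretch shown. Among all 32851 RefSeq promoters of 300 bases (250 before and 50 after the start), 20.2% held at least 1 E-box, 2.88% at least 2, 0.365% at least 3 and 0.0548% at least 4. RefSeq windows were matched for 8 of the 10 genes (not *Scrib* or *Llgl2*), in 15 windows. Of these, 6 held an E-box, in 5 genes, with the overlapping windows of *Crb3* counted separately. *Dlg1* held 1, in 1 of its 4 windows, and *Patj* held its matches in 1 of its 3 windows. The other window of *Pard3* held 0, and *Llgl1*, *Dlg5* and *Prkci* had none in theirs. The hypoxia response core ACGTG or CACGT, which does not lie within the E-box letters, was found in 7 windows of 6 genes and in 19.6% of all promoters. The TEAD element GGAATG or CATTCC, through which Hippo signaling acts on transcription, was found in 2 windows, of *Prkci* and *Crb3*, and in 14.7% of all promoters. These matches describe letters only, and no binding was measured. *Snai1*, of the Snail family, had 43 and 25 counts in the libraries labelled si-NC and 6 and 9 in those labelled si-*Itgb6*. These counts are low, and any part of *Snai1* in the levels of the polarity genes was not tested.

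The totals were 15435087 to 17220285 estimated counts per library, and 11727 genes passed the low-count filter, among them all 10 polarity genes. *Itgb6*, the targeted gene, which encodes the integrin β6 subunit, had levels, as CPM of the TMM-scaled library total, of 17.48 and 16.44 in the libraries labelled si-NC and 18.03 and 15.79 CPM in those labelled si-*Itgb6*. Its log2 fold change was -0.01 ± 0.13 (SE), with an adjusted p of 0.991 in edgeR's quasi-likelihood test, and the groups overlapped, so the mRNA level did not separate the labels. All 6 epithelial markers were above 1 CPM, and their sum was 2884 to 2937 CPM in si-NC and 2673 to 2721 CPM in si-*Itgb6*. Of 12 proximal tubule markers, 7 were above 1 CPM, while *Slc34a1*, *Slc5a2* and *Slc22a6*, which encode transporters of the differentiated tubule, had no count in any library, so these defining markers of the labelled cell type were absent. The 4 fibroblast markers summed to 2.78 to 3.42 CPM, the 4 endothelial markers to 2.71 to 4.31 CPM and the 4 macrophage markers to 121 to 141 CPM, the last almost wholly *Cd68* and *Csf1r*, with *Ptprc* and *Adgre1* under 1 CPM in every library.

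Some markers of the line itself differed between the groups. Of the 6 epithelial markers, 4 lay lower in both si-*Itgb6* libraries (*Krt8*, *Epcam*, *Cdh1* and *Tjp1*, with log2 fold changes of -0.20, -0.15, -0.14 and -0.13) and *Cldn1* lay higher, at 0.25. Over all genes tested, the groups did not overlap in 25.4% in the lower direction and in 23.8% in the higher. *Krt8*, a keratin of simple epithelia, had an adjusted p of 0.00881 and the tight junction claudin *Cldn1* one of 0.0355. The other 3 had 0.0783 to 0.141. Neither *Krt8* nor *Cldn1* was past the fold threshold for a call. With GC and length trends removed (described below), *Krt8* moved to -0.11 and *Cldn1* to 0.16. *Epcam* moved to -0.12, *Cdh1* to -0.10 and *Tjp1*, away from 0, to -0.15. In that fit these markers had adjusted p-values of 0.0938 to 0.322 in edgeR's quasi-likelihood test. The water channel *Aqp1*, a proximal tubule marker, rose by 0.59 ± 0.10 on the log2 scale (adjusted p = 0.000617). With the trends removed, *Aqp1* stood at 0.65 (adjusted p = 0.00125 in the same test). The other tested proximal tubule markers were not called. The part of these shifts in the differences of the polarity genes was not tested.

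Among the 10 genes, lower levels in the libraries labelled si-*Itgb6* were most marked for *Pard6b*, *Llgl1*, *Dlg5* and *Scrib*, which stood at 73.5% to 81.8% of the si-NC mean. *Dlg1*, *Pard3* and *Prkci* stood at 95.1% to 98.7%, with overlapping groups, and *Patj* at 106%. The log2 fold change was below 0 for 9 of the 10, with a median of -0.18, against a median of 0.0002 over all genes tested, of which 5858 were below 0. By an unadjusted p under 0.05 with a fold change over 1.2, 4 of the 10 were past both thresholds as lower (*Scrib*, *Dlg5*, *Llgl1* and *Pard6b*), where 5.2% of all genes tested were called lower, and 0 were past them as higher, where 4.37% were called. By an adjusted p under 0.05 alone, 4 were lower (*Scrib*, *Llgl1*, *Llgl2* and *Pard6b*), beside 2.52% of all genes tested. The groups did not overlap in 6 of the 10 in the lower direction, beside 25.4% of all genes, and in 1 in the higher direction, beside 23.8%. Since these contrasts chose the genes, nothing is read from these counts. In bulk RNA, fewer cells of a kind and less RNA per cell cannot be told apart.

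**Figure D1:**
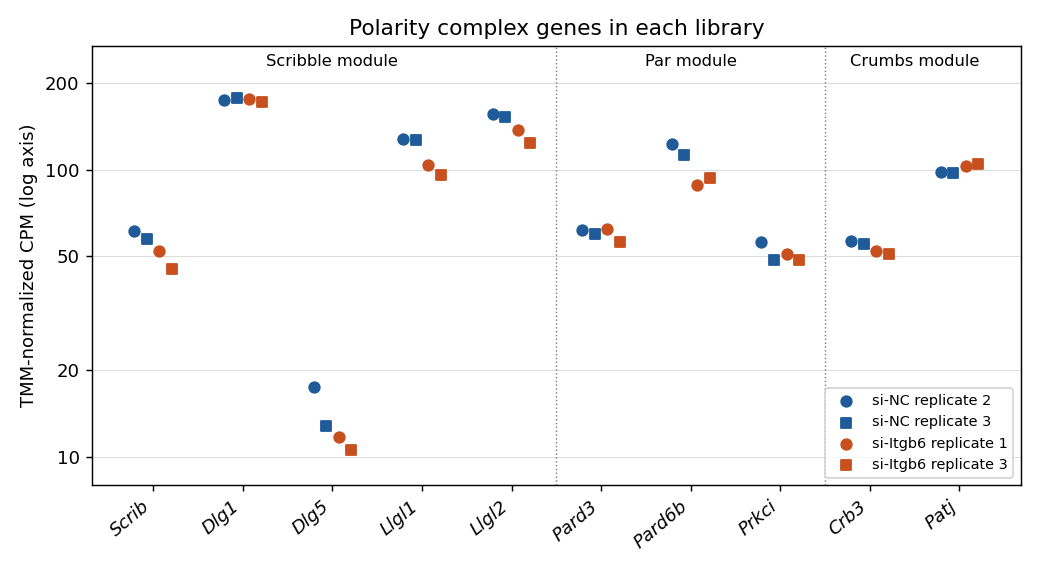
TMM-normalized CPM (log axis) of the 10 polarity genes in each of the 4 libraries, grouped by module, with si-NC in blue, si-*Itgb6* in orange, and 1 point per library. *Llgl1* lay at 127.6 and 126.7 CPM in si-NC and at 104.3 and 95.67 CPM in si-*Itgb6*, while the points of *Dlg1*, *Pard3* and *Prkci* overlapped.

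In the Scribble module, all 5 genes were below 0, with a median log2 fold change of -0.29, and 3 of the 5 were past both thresholds. Of the 11727 genes tested, 5858 were below 0 and 5.2% were called lower. With GC and length trends removed (described below), 1 of the 5 was past both thresholds and the median was -0.13. This contrast chose the genes, so nothing is read from the counts by module. *Scrib* (ENSMUSG00000022568), the scaffold that gives the module its name, lies on the minus strand at chr15:76047158-76069784 (GRCm38). Its counts were 1001 and 994 in the libraries labelled si-NC, at 61.38 and 57.55 CPM, and 807 and 744 in those labelled si-*Itgb6*, at 52.14 and 45.19 CPM. Both si-*Itgb6* libraries were below both si-NC libraries, with means of 59.5 ± 2.71 against 48.7 ± 4.91 CPM (SD) and a log2 fold change of -0.29 ± 0.09 (SE). The nearest libraries of the groups differed by less than the si-*Itgb6* pair did.

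The LGL scaffolds, which are substrates of atypical PKC and restrain it at the basolateral membrane, both stood lower in the si-*Itgb6* libraries. *Llgl1* (chr11:60699723-60714186, plus strand) had 2081 and 2188 counts at 127.6 and 126.7 CPM in si-NC, and 1614 and 1575 counts at 104.3 and 95.67 CPM in si-*Itgb6*. The si-NC libraries were nearly equal and the groups lay well apart, at 127.2 ± 0.652 and 99.97 ± 6.09 CPM, a log2 fold change of -0.35 ± 0.07. *Llgl2* (chr11:115824049-115855780, plus strand), the paralogue typical of epithelia, had 156.2 and 152.1 CPM in si-NC and 137.9 and 123.5 CPM in si-*Itgb6*. The groups did not overlap, but their nearest libraries differed by about as much as the si-*Itgb6* pair did. Its log2 fold change of -0.24 ± 0.06 was short of the fold threshold.

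The DLG scaffolds are membrane-associated guanylate kinases of the lateral membrane. *Dlg1* (chr16:31663443-31875129, plus strand), the mammalian counterpart of the fly tumor suppressor Discs large, had 174.8 and 177.9 CPM in si-NC and 176.1 and 172.1 CPM in si-*Itgb6*, so its groups overlapped and its log2 fold change was -0.02 ± 0.06. *Dlg5* (chr14:24133953-24245920, minus strand), a distant DLG relative that links cadherin complexes to vesicle traffic, was the least abundant of the 10, with 286 and 222 counts in si-NC and 182 and 174 in si-*Itgb6*. In CPM these were 17.54 and 12.85 against 11.76 and 10.57, so both si-*Itgb6* libraries were lower but the nearest libraries of the groups differed by less than the si-NC pair did. Its log2 fold change of -0.44 ± 0.16 was the most negative of the 10 and moved to -0.21 without si-NC replicate 2.

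In the Par module, all 3 genes were below 0, and *Pard6b* alone was past both thresholds, beside the same shares over all genes. *Pard6b* (ENSMUSG00000044641, chr2:168081004-168101203, plus strand) encodes the adaptor that couples atypical PKC to the GTPase Cdc42, and its promoter is among those shown above. It had 2006 and 1942 counts at 123.0 and 112.4 CPM in si-NC, and 1371 and 1539 counts at 88.58 and 93.48 CPM in si-*Itgb6*. The groups lay apart by more than either pair spread, at 117.7 ± 7.47 against 91.0 ± 3.47 CPM, and the log2 fold change was -0.37 ± 0.07.

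Its partners differed less between the groups. *Pard3* (chr8:127063893-127612286, plus strand), the scaffold of the tight junction that recruits the complex, had 61.69 and 59.87 CPM in si-NC and 62.02 and 56.12 CPM in si-*Itgb6*, and the si-*Itgb6* pair spanned the si-NC pair. *Prkci* (chr3:30995747-31052959, plus strand), which encodes the atypical PKC iota, had 55.99 and 48.70 CPM in si-NC and 51.04 and 48.53 CPM in si-*Itgb6*. Here too the groups overlapped. Their log2 fold changes were -0.04 ± 0.08 and -0.07 ± 0.09, and leaving out 1 library at a time moved them between -0.12 and 0.03 and between -0.17 and 0.03.

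The 2 Crumbs genes stood on opposite sides of 0. *Crb3* (chr17:57059105-57065918, plus strand), the short transmembrane Crumbs protein of mammalian epithelia, had 56.72 and 55.24 CPM in si-NC and 52.33 and 51.08 CPM in si-*Itgb6*. The groups did not overlap, and the log2 fold change was -0.11 ± 0.08, short of both thresholds. *Patj* (chr4:98395785-98719603, plus strand), the multi-PDZ scaffold that ties the Crumbs complex to the tight junction, had 98.24 and 97.33 CPM in si-NC and 102.9 and 105.1 CPM in si-*Itgb6*. It was the one gene of the 10 with both si-*Itgb6* libraries above both si-NC libraries, with a log2 fold change of 0.09 ± 0.07, also short of both thresholds.

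Set against all genes tested, the log2 fold changes of the 10 ranged from *Dlg5*, with 3.94% of genes more negative, through *Pard6b* at 5.88%, *Llgl1* at 6.65% and *Scrib* at 9.22%, to *Patj* at 69.7%. Within groups, si-*Itgb6* replicate 3 was below replicate 1 in 8 of the 10 genes and si-NC replicate 3 was below replicate 2 in 9. With 1 library left out at a time, the log2 fold change ranged from -0.41 to -0.28 for *Llgl1* and from -0.43 to -0.31 for *Pard6b*. It ranged from -0.40 to -0.19 for *Scrib*, from -0.65 to -0.21 for *Dlg5* and from -0.32 to -0.16 for *Llgl2*. These fits reuse the values that chose the genes, so they lend the differences no support.

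GC content of the transcript moved with the difference between the groups over the whole table. The median log2 fold change was 0.08 in 3030 genes under 45% GC, -0.04 in 3024 genes of 50% to 55%, -0.10 in 2208 genes of 55% to 60% and -0.15 in 485 genes of at least 60%, and the share called lower was 1.25%, 5.52%, 10.4% and 19.8% in these bins. *Scrib* at 61.2% GC, *Llgl2* at 60.5%, *Llgl1* at 58.3%, *Crb3* at 57.8% and *Dlg5* at 56.9% lay in the upper bins. *Pard6b* at 53.8%, *Pard3* at 52.8% and *Patj* at 50.1% lay in the middle bin, and *Dlg1* at 43.8% and *Prkci* at 44.5% in the lowest. The genes in the upper bins had log2 fold changes of -0.44 to -0.11. In the middle and lowest bins *Pard6b* had -0.37 and the others had -0.07 to 0.09. The part of GC content in these differences was not tested.

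When GC and length trends were removed from each library, the log2 fold change went from -0.29 to -0.13 for *Scrib*, from -0.35 to -0.21 for *Llgl1* and from -0.24 to -0.08 for *Llgl2*. It went from -0.37 to -0.30 for *Pard6b* and from -0.44 to -0.34 for *Dlg5*, and these 2 remained past both thresholds, beside 3.59% of the 11709 genes in that fit that were called lower. By an adjusted p, *Pard6b* alone of the 10 remained. *Pard3* moved to 0.01, and *Patj* was at 0.10. The median over the 10 genes moved to -0.09, with 8 below 0. This fit also reused the values that chose the genes, so nothing is read from which of them remained past a threshold.

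**Figure D2:**
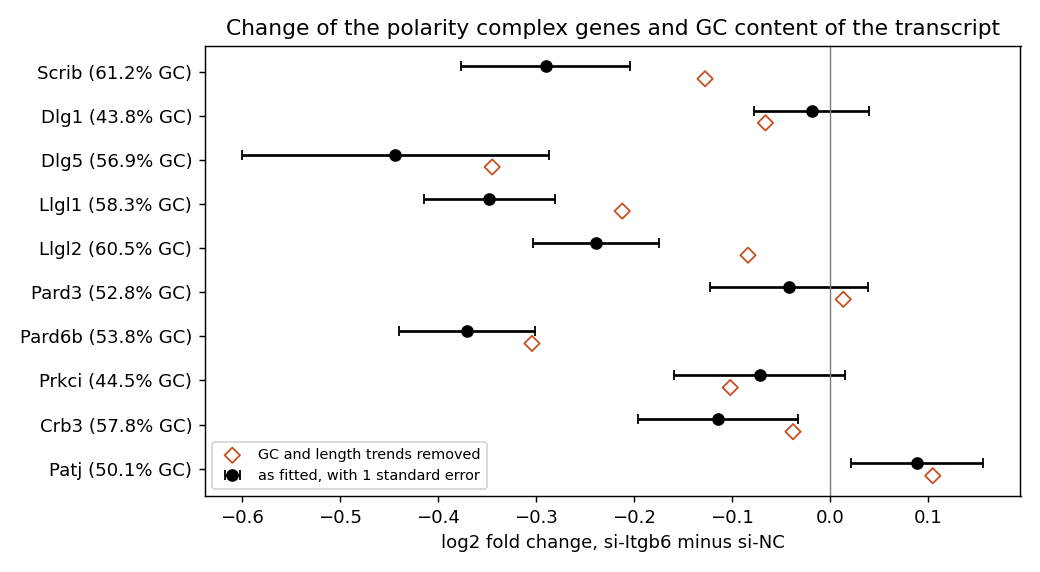
Log2 fold change (si-*Itgb6* minus si-NC) of each polarity gene, as fitted (black, bars of 1 standard error) and with GC and length trends removed (open diamonds), with the GC content of the longest transcript beside each name. The gap between the markers is wide for *Scrib* (-0.29 and -0.13) and narrow for *Pard6b* (-0.37 and -0.30).

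Levels per length, which the choice of genes did not use, were read from the deposited FPKM. *Crb3* was the most abundant at 56.3 FPKM (mean of 4 libraries, range 52.4 to 60.1), followed by *Llgl2* at 49.0 (42.5 to 51.9), *Dlg1* at 48.2 (44.7 to 49.8), *Pard6b* at 30.7 (26.1 to 36.4) and *Llgl1* at 26.6 (22.1 to 30.02). *Patj* at 24.7 (24.2 to 25.2), *Pard3* at 19.3 (17.3 to 20.3), *Prkci* at 10.8 (10.2 to 12.0), *Scrib* at 9.93 (8.18 to 11.3) and *Dlg5* at 2.56 FPKM (2.08 to 3.08) came after. Of the 9 neighboring pairs in this order, 4 overlapped in range over the libraries. These were *Llgl2* and *Dlg1*, *Pard6b* and *Llgl1*, *Llgl1* and *Patj*, and *Prkci* and *Scrib*. Within each of the 4 libraries, *Pard6b* was above *Llgl1*. In the other overlapping pairs the first gene was above in 3 of the 4 libraries, so these could not be ordered beyond their spread. Dividing CPM by the longest transcript's length instead of using FPKM made *Pard6b* and *Dlg1* trade places, and likewise *Prkci* and *Pard3*. The apical *Crb3* was above every other gene of the 10 in all 4 libraries, and *Dlg5* below.

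Of the 10 genes, *Crb3*, *Pard3*, *Patj*, *Pard6b*, *Dlg1* and *Llgl2* made up most of the FPKM of their families. *Crb3* made up 100% of the Crumbs genes, since *Crb1* and *Crb2*, its long relatives of retina and kidney glomerulus, had 0 counts in all 4 libraries. *Pard3* made up 98.2% to 98.9% beside *Pard3b*, *Patj* 82.9% to 85.7% beside its paralogue *Mpdz*, and *Pard6b* 81.7% to 84.9% beside *Pard6a* (14% to 16.8%) and *Pard6g*. *Dlg1* held 73.5% to 74.8% of the DLG genes, *Dlg4* 13% to 15%, *Dlg3* 7.4% to 8.95%, *Dlg5* 3.22% to 4.66% and *Dlg2* at most 0.174%.

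The atypical PKC pair was more even. *Prkci* made up 51.5% and 47.5% of it in si-NC and 47.2% and 45.5% in si-*Itgb6*, with *Prkcz*, which encodes PKC zeta, as the rest. Between the LGL genes, *Llgl1* made up 36.7% and 36.7% in si-NC and 32.7% and 34.2% in si-*Itgb6*. *Llgl2* made up the rest, at 63.3% to 67.3%. The contrast of these groups chose the genes, and the lengths behind the FPKM of *Llgl2* varied between libraries (below). Nothing is therefore read from a difference of these shares between the groups.

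**Figure D3:**
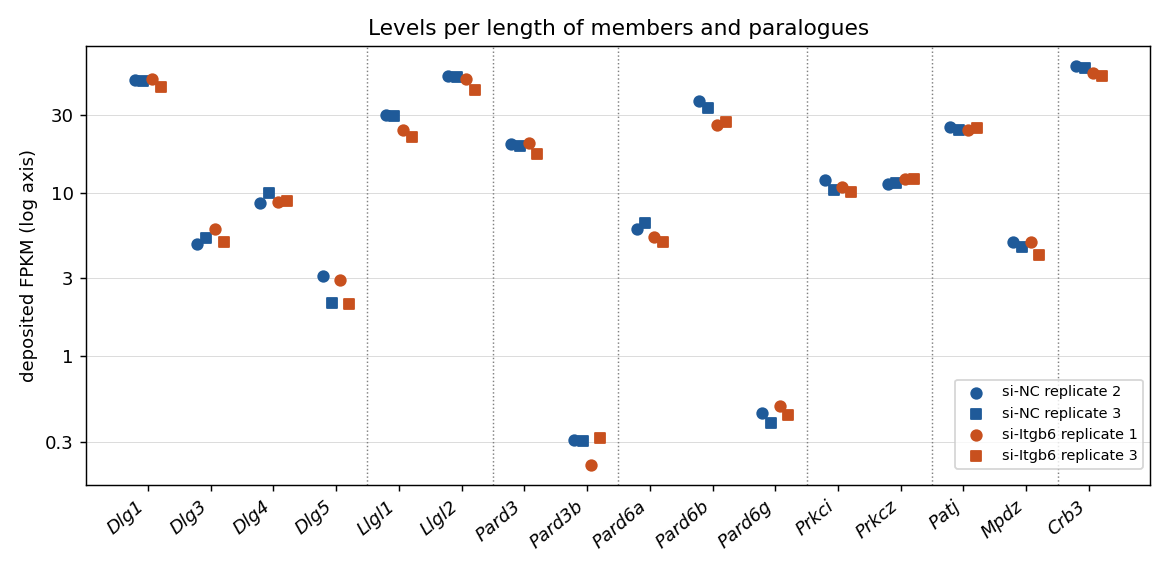
Deposited FPKM (log axis) of the polarity genes and their paralogues in each library, by family, with si-NC in blue, si-*Itgb6* in orange, and 1 point per library. *Prkci* and *Prkcz* lay at like levels, while *Pard6b* at 26.1 to 36.4 FPKM lay far above *Pard6g*.

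Counts and FPKM did not give the same difference for every gene, because the transcript length implied by the deposited count, total and FPKM varied between libraries. For *Dlg5* the implied length was 5730 and 6047 bases in si-NC and 4009 and 5004 bases in si-*Itgb6*, a ratio of 1.51 between the longest and the shortest. The log2 ratio of mean FPKM for *Dlg5* was -0.05, against -0.44 for mean CPM, so the most negative change of the 10 by counts was close to 0 per length. For *Llgl2* the implied lengths were 3032 and 2983 bases against 2751 and 2865, and the log2 ratio was -0.15 by FPKM and -0.24 by CPM. *Patj* had the opposite pattern, with 3919 and 4027 bases in si-NC and 4254 and 4167 in si-*Itgb6*, and its log2 ratio was -0.01 by FPKM and 0.09 by CPM. *Pard6b* (3399 bases) and *Prkci* (4708 bases) had a single implied length in all 4 libraries, and *Scrib* and *Llgl1* varied by a ratio of 1.00. Over 11710 genes the median ratio was 1.02, and 14.8% were above 1.2, so among these 10 genes *Dlg5* alone was in that class. Which transcripts of *Dlg5* gave its reads was not measured.

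**Figure D4:**
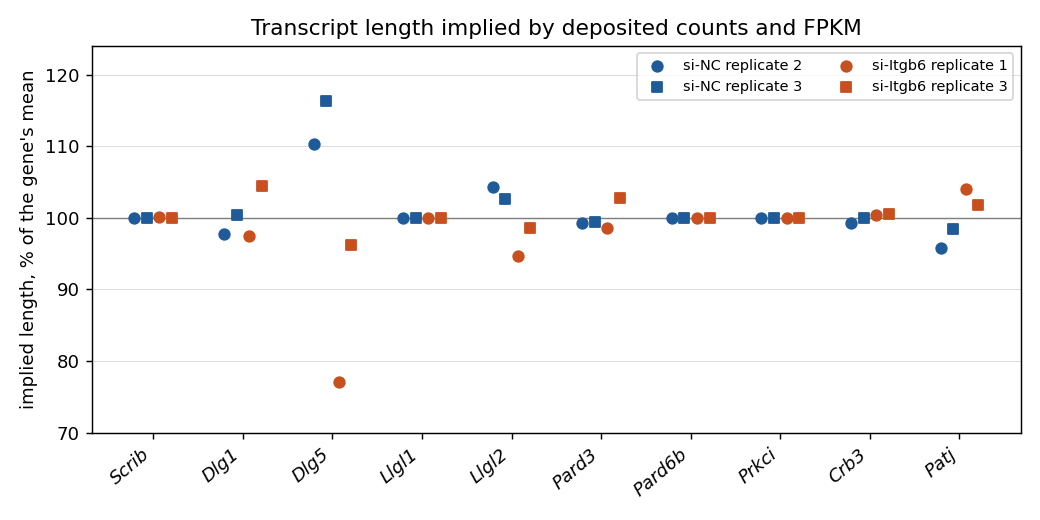
Transcript length implied by deposited counts and FPKM for each polarity gene, as a percentage of the mean of the gene's 4 libraries, with 1 point per library. The *Dlg5* points spread from 4009 to 6047 bases, whereas *Pard6b* and *Prkci* lay on the line at 100%.

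Since strand was not recorded, reads in an overlap of genes on opposite strands belong to either gene. *Llgl1* shared 64 exonic bases (1.32%) with *Flii* and *Crb3* 14 bases (0.895%) with *Dennd1c*, both on the opposite strand, and *Dlg5* shared 126 bases (1.48%) with *Gm49098* on the same strand. The counts of *Prkci* in 1 library and of *Patj* in 3 were not whole numbers.

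The other genes of the polarity pathways were taken from a list of 61 paralogues, kinases, adaptors and partners, of which 55 could be tested. By the unadjusted p and fold thresholds, *Tiam1* and *Vangl2* fell in the libraries labelled si-*Itgb6*, 0 genes rose, and 53 were not called, where 5.2% and 4.37% of all genes tested were called lower and higher. The share called on this list, 3.64%, was thus not above the share over all genes. By an adjusted p under 0.05 in edgeR's quasi-likelihood test 0 were called, against 4 at an unadjusted p under 0.05, and DESeq2 gave 0 and 2. The median log2 fold change of the 55 was 0.01, and 23 were below 0.

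*Tiam1*, an exchange factor that activates Rac1 and binds Par3, had 22.38 and 19.11 CPM in si-NC and 16.47 and 15.91 CPM in si-*Itgb6*, with no overlap. Its log2 fold change was -0.36 ± 0.13 (adjusted p = 0.107). *Vangl2*, a planar cell polarity protein that binds Scribble, had 22.20 and 20.03 CPM against 18.03 and 17.07 CPM, also with no overlap, a difference of -0.27 ± 0.12 on the log2 scale (adjusted p = 0.243). With GC and length trends removed, *Tiam1* alone of the pair stayed past both thresholds, at -0.32. Neither was past them without si-NC replicate 2 (-0.24 for *Tiam1* and -0.19 for *Vangl2*), and *Vangl2* was not past them without si-*Itgb6* replicate 3 (-0.22) or by DESeq2.

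Among the paralogues and the other Par and Crumbs genes, 0 passed both thresholds. *Dlg3* and *Dlg4* had log2 fold changes of 0.13 and 0.08, with overlapping groups. *Prkcz* had 0.09 (adjusted p = 0.694) and *Pard6a* -0.27 ± 0.19 (adjusted p = 0.494), while *Cdc42*, the GTPase that PAR6 binds, had 0.12 (adjusted p = 0.177). *Pals1*, the adaptor that joins Crumbs to PATJ, had 0.14 ± 0.07 (adjusted p = 0.299) and *Mpdz* -0.23 (adjusted p = 0.337). None of the 15 tested Par-1, Par-4 and Par-5 genes, which encode the MARK and LKB1 kinases and the 14-3-3 proteins, was called. A miss of the threshold does not show that these levels were equal.

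**Figure D5:**
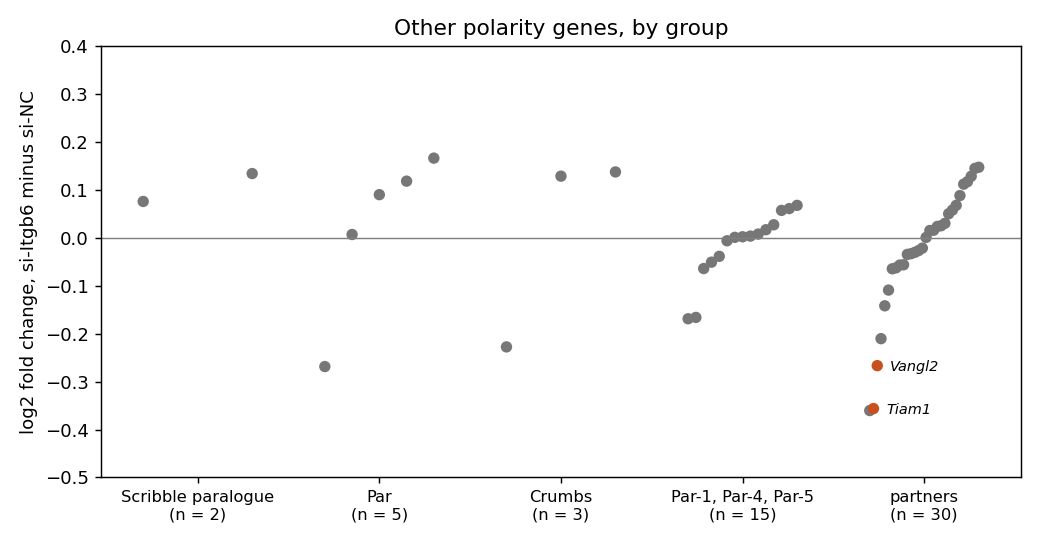
Log2 fold change (si-*Itgb6* minus si-NC) of the 55 other polarity genes tested, by group and sorted within it, with the called genes in orange. *Tiam1* (-0.36) and *Vangl2* (-0.27) are among the partners, and the other points are not called.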

How the data were processed

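Polyadenylated RNA from 4 libraries was sequenced in pairs without strand information. The authors deposited estimated counts per gene, not normalized, and FPKM values that they calculated from the same libraries. The read aligner, counter, build and annotation are not given in the sources used here. Before the fit, the estimated counts were rounded, filtered with filterByExpr (minimum count 10, minimum total 15) and scaled by TMM. Groups were compared by edgeR's quasi-likelihood test (version 4.0.16, R 4.3.3), and p-values were adjusted over all genes tested by Benjamini-Hochberg. A gene was called at an unadjusted p under 0.05 with a fold change over 1.2, as the study's methods state. Replicates differed by more than sampling noise (chi-square per gene 3.15 and 4.00), and the common biological coefficient of variation was 0.0551. Tested on simulated data with 197 genes changed 2-fold among 11713, the fit recovered 93.9% at an adjusted p under 0.05. The simulation had the same coefficient of variation for every gene and no GC trend. Its changes were larger than those of the 10 polarity genes, so it does not show the recovery of changes of their size.

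FPKM values were used for levels per length and in no test. The implied length is the count divided by the FPKM and by the library's total. GC content, transcript lengths, coordinates and exon overlaps came from GENCODE M21 (GRCm38), which held 99.6% of the identifiers and which may differ from the annotation behind the counts. Trends of GC content and length were removed with lowess curves (span 0.3) entered as offsets. Promoters came from RefSeq.

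The polarity genes, the other lists and the tests were chosen with earlier results of these data known. The genes named were the 10 polarity genes, *Itgb6*, the paralogues for their levels, and called genes of the list of 61 others. *Cdc42*, *Pals1*, *Snai1* and the individual markers were named after their values were seen. The alternatives were other tests (likelihood ratio, exact, DESeq2 1.42.0), other scalings (RLE, library size only), other filters, GC and length trends removed, other thresholds, and each library left out.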

Additional observations from a re-analysis of the deposited data

How the results depend on the processing

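Genes called lower and higher numbered 610 and 512, against 383 and 320 by DESeq2, 295 and 247 by an adjusted p, 110 and 125 at a fold change over 1.5, 420 and 419 with GC and length trends removed, and 402 to 768 and 338 to 645 with 1 library left out. The lowest values came without si-NC replicate 2. Polarity genes past both thresholds numbered 4, against 2 with GC and length trends removed, 0 at a fold change over 1.5 and 2 to 5 with 1 library left out, and their median log2 fold change went from -0.18 to -0.093 with those trends removed. The other polarity genes called lower numbered 2, against 1 by DESeq2, 1 with those trends removed, 0 by an adjusted p, 0 at a fold change over 1.5 and 0 to 3 with 1 library left out (0 with si-NC replicate 2 removed, 1 with si-*Itgb6* replicate 3 removed). The log2 fold change of *Itgb6*, never called, ranged from -0.103 to 0.0909 with 1 library left out, being above 0 with si-*Itgb6* replicate 3 (0.0909) or si-NC replicate 2 (0.0383) removed. The cause was not tested in these cases, except that leaving out a library leaves 1 sample in a group, which is assumed to vary like the others. Polarity genes at an adjusted p under 0.05 numbered 4, against 3 (without *Scrib*) by DESeq2, RLE factors or library size only, 1 with trends removed and 0 to 4 with 1 library left out. Of polarity genes near 0, *Pard3* turned above 0 with trends removed (0.01) and with si-*Itgb6* replicate 3 removed (0.03), as did *Dlg1* in the latter case (0.0006), and *Prkci* with si-NC replicate 2 removed (0.03). No paired analysis was possible because the groups share only replicate number 3. With *Dlg5* at 174 to 286 counts per library, counting error limits its value most among the 10 genes.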
